A study of Mus musculus with 14 samples.

Results

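The 36 genes described here are immediate early genes and heat shock genes, whose RNA responds within a short time to growth factors, mechanical strain, heat and the handling of cells during isolation. They were chosen by name, with earlier results of these data known. They are 7 subunits of the transcription factor AP-1, 10 other immediate early transcription factors, 9 other early response regulators, and 10 chaperones and co-chaperones. Each gene was read from the brightest of its probe sets over 14 arrays. All 36 were among the 13035 genes tested, of 18194 genes with a probe set. RNA came from liver sinusoidal endothelial cells (LSEC), lung endothelial cells and thymus cells of mice of FVBn background. Every mouse, controls included, carried floxed (L/L) alleles of Fk1, Fk2 and Afx, older names of the forkhead transcription factor genes Foxo1, Foxo3 and Foxo4. Control samples were MxCre-. Experimental samples were MxCre+, with Cre recombinase under the interferon-inducible Mx promoter, and are called Cre+. There were 3 control and 3 Cre+ samples of LSEC, 2 and 2 of lung endothelial cells, and 2 and 2 of thymus. The labels give no age or sex, no treatment that induced Cre, no method of isolating cells, and no statement that replicates came from separate animals, so p-values measure the spread between these samples.

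Immediate early genes are transcribed from factors already present in the cell, without new protein synthesis. Kinases activate serum response factor with its cofactors, and CREB, at their promoters, and the products, such as the Fos and Jun proteins that pair to form AP-1, then drive a later set of genes. Heat shock genes answer unfolded protein: heat shock factor 1, freed from chaperones, binds heat shock elements, short inverted repeats near the start site, and the chaperones it induces refold protein and return the factor to rest. Both programmes can be set off by enzymatic digestion, cooling or warming of tissue.

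Promoter windows ran from 250 bases before to 50 bases after the start site, from RefSeq and the GRCm38.p6 assembly of C57BL/6J mice. They were matched for 29 of the 36 genes, and the samples were of another strain. Where a gene had several starts, only the most upstream was read, and other starts were not searched. The heat shock element was searched as GAANNTTC or TTCNNGAA on both strands, and at least 1 match stood in 15.1% of 27025 promoters of the same length. Of the 8 chaperone genes with a window, 6 held a match, and 3 of them (Hspb1, Hsph1 and Hspe1) held 2 or more, against 1.9% of all promoters. The stretches around the matches upstream of the start are printed 5′ to 3′ on the gene's strand because their genes are those that differed most between thymus arrays, or, for Hspb1, between LSEC genotypes. Capitals mark the matches, which in Hspe1 overlap.
Hspa1a (chr17:34972213-34972300, minus strand): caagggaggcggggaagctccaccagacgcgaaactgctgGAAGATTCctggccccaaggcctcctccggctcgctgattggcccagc
Hspb1 (chr5:135887762-135887869, plus strand): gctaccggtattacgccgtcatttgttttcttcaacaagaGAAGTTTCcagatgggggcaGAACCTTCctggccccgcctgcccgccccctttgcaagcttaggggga
Dnaja1 (chr4:40722304-40722391, plus strand): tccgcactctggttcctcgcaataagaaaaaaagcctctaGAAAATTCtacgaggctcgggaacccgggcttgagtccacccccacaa
Hsph1 (chr5:149636337-149636409, minus strand): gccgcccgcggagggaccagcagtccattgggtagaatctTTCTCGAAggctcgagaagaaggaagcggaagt
Hspe1 (chr1:55088019-55088116, plus strand): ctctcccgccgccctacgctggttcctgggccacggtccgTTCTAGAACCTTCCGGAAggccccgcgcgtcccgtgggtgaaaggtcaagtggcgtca

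The Hspa1b window matched that of Hspa1a at 296 of 300 bases (98.7%) and holds the same element, so the upstream regions of these near-identical genes, like their transcripts, differ little. Jun and Fosl2 were the other genes with a heat shock element match. The CRE, the site of CREB, was searched as TGACGTCA, which is its own reverse complement. It stood in 1.85% of all promoters and in 3 of the 29, those of Btg2, Dusp1 and Ppp1r15a, all early response regulators. They are printed because Btg2 and Dusp1 fell in Cre+ LSEC, with the CRE in capitals.
Btg2 (chr1:134079274-134079361, minus strand): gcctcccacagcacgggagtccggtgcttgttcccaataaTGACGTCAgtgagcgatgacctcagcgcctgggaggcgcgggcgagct
Dusp1 (chr17:26508568-26508655, minus strand): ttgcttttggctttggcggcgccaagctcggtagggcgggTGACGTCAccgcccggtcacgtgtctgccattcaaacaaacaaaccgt
Ppp1r15a (chr7:45526269-45526320, minus strand): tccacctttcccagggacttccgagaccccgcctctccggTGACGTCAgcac

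The forkhead site was searched as GTAAACA on both strands, since the floxed genes encode forkhead factors. It stood in 3.52% of all promoters and in 1 of the 29, that of Junb, where the capitals mark the reverse complement.
Junb (chr8:84978837-84978923, minus strand): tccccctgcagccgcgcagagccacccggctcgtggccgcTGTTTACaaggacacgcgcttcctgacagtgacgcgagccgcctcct

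The AP-1 site TGANTCA, in 7.92% of promoters, matched in Hspa5, and the CArG box of serum response factor, in 1.59%, matched in Zfp36. A match is a description of these letters, not of a bound factor, and a window without a match says nothing of sites elsewhere.

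All levels are log2 values after quantile normalization, and differences are between group means of those values. The number of arrays limits the precision of every comparison, since the groups hold only 2 or 3. Within a group, the correlation of arrays over the genes tested was 0.970 to 0.987. The floxed genes were read as a check of the genotype labels, from 9 probe sets whose place relative to the floxed exons is not given in the sources used here. The Cre+ mean was lower than the control mean on 8 of the 9 in LSEC, on 6 in lung and on 6 in thymus. A Foxo1 probe set read 8.87 in control against 6.77 in Cre+ LSEC, 8.71 against 7.65 in lung, and 9.06 against 8.04 in thymus. Of the 2 Foxo4 probe sets, one read 7.12 against 4.98, 7.47 against 6.37, and 8.09 against 4.85 in the same order, and the other 6.58 against 6.48, 6.67 against 6.06, and 6.33 against 6.26. For Foxo3, 0 of 3 probe sets were lower in Cre+ lung and 0 of 3 in Cre+ thymus, one of them reading 9.12 against 8.59 in LSEC, 8.56 against 8.67 in lung, and 8.92 against 9.60 in thymus, so the Foxo3 signal checks the label in LSEC at most. Pan-endothelial and thymocyte markers followed the labels. Over 10 pan-endothelial genes the array means were 10.15 to 10.84 in LSEC, 9.17 to 9.82 in lung and 5.99 to 6.28 in thymus. Over 10 thymocyte genes they were 11.31 to 11.48 on thymus arrays and 5.47 to 6.16 on the others. Lung endothelial markers did not set lung apart from LSEC. Over 10 such genes the means were 8.96 and 8.96 in control lung against 8.95, 9.15 and 8.89 in control LSEC. Of these 10 genes, 4 were higher and 5 lower in control LSEC (limma adjusted p under 0.05). The lung arrays also carried lung epithelial genes (a mean of 9.97 to 10.21 over 9 genes, against 7.10 to 7.95 elsewhere) and stellate, fibroblast and mural genes (9.88 to 10.12 over 12 genes, against 6.61 to 8.39 elsewhere). The thymus arrays numbered 1, of both genotypes, stood apart from the other 12 arrays in their X- and Y-linked transcripts. Xist was 13.12 and 13.28 there and 6.42 to 7.30 on the other 12, and the Y-linked Eif2s3y was 1.86 and 2.06 there and 8.42 to 9.03 on the other 12.

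In LSEC, 11 of the 36 genes fell in Cre+ samples and 0 rose (limma, Benjamini-Hochberg adjusted p under 0.05 over all genes tested), against 6.06% of all genes called in either direction, 3.25% lower and 2.81% higher. The genes that fell were the zinc finger factors Egr1, Egr2 and Egr3, the stress factor Atf3, the AP-1 subunits Jun and Junb, the regulators Btg2, Ier3, Rhob and Dusp1, and the small heat shock protein gene Hspb1. Egr1, Hspb1 and Atf3 differed most, at 3.40-fold, 3.39-fold and 3.01-fold lower. The groups did not overlap for 18 of the 36 genes, against 23.7% of all genes. The difference was below 0 for 30 of the 36, with a median of -0.32 against 0.01 over all genes tested. Because the 36 were chosen with earlier results of these data known, these counts beside all genes are a description, not a test. In these bulk samples, fewer cells of a type and less RNA per cell cannot be told apart.

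Of the AP-1 subunits, which bind DNA as Jun-Jun or Fos-Jun pairs, 2 of the 7 fell, both of the Jun family. Whether the Jun and Fos genes differed from each other was not tested. Jun read 10.10, 10.02 and 10.44 in control LSEC and 9.71, 8.84 and 9.43 in Cre+ LSEC. Every Cre+ array lay below every control array, and the Cre+ arrays were more spread out. Jun fell by 0.86 (SE 0.22, limma adjusted p = 0.0412), and the call was lost in 8 of 14 alternatives, with adjusted p from 0.0129 to 0.135. Its other probe set gave -0.76.

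Junb read 9.51, 9.47 and 9.78 in control against 8.95, 9.17 and 9.09 in Cre+ LSEC, with no overlap. It fell by 0.52 (SE 0.10, limma adjusted p = 0.0131). Jund, the member of the family least tied to stimulation, read 12.22, 12.26 and 12.06 in control against 11.90, 11.84 and 11.96 in Cre+ LSEC. These groups did not overlap either, but the difference of -0.28 did not pass (limma adjusted p = 0.068).

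Fos, the classical serum-induced gene, read 9.78, 9.90 and 10.08 in control against 10.43, 9.96 and 10.02 in Cre+ LSEC. The groups overlapped, the Cre+ array numbered 1 was the highest of the 6, and the difference was 0.22 with an interval of -0.08 to 0.51. Fosb, Fosl1 and Fosl2, the other Fos family members, differed by -0.02, -0.17 and -0.16. None of the 4 Fos family genes passed, and their intervals ran at most from -0.54 to 0.51.

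Among the other immediate early factors, Egr1 had the largest difference. Egr1 read 11.06, 10.78 and 11.39 in control LSEC and 9.18, 9.86 and 8.89 in Cre+ LSEC. The highest Cre+ array lay 0.92 below the lowest control array. Egr1 fell by 1.76 (SE 0.23, interval -2.26 to -1.27, limma adjusted p = 0.00101).

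Egr2 and Egr3, relatives of Egr1 that share its zinc finger domain, were dim in LSEC. Egr2 read 7.01, 6.49 and 7.02 in control against 5.61, 6.23 and 5.67 in Cre+ LSEC. Egr3 read 6.94, 6.87 and 6.70 in control against 6.26, 5.82 and 5.62 in Cre+ LSEC. Neither gene's groups overlapped. Both control means (6.84) and the Cre+ means of 5.84 and 5.90 lie under 6.87, the level set for a gene to be tested, which these genes reached only in lung or thymus, so the sizes are uncertain. Egr2 fell by 1.0 (limma adjusted p = 0.0164) and was lost in 6 of 14 alternatives. Egr3 fell by 0.93 (limma adjusted p = 0.0147) and was lost in 3 of 13. The dimmer second probe set of Egr2 gave -0.90, and that of Egr3 gave 0.14, so the probe sets of Egr3 disagree.

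Atf3, a factor of the ATF/CREB family induced by many stresses, read 10.77, 10.54 and 11.35 in control against 9.32, 9.31 and 9.27 in Cre+ LSEC. The Cre+ arrays lay within 0.05 of each other and at least 1.22 below any control array. Atf3 fell by 1.59 (SE 0.17, interval -1.96 to -1.22, limma adjusted p = 0.000288).

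The orphan nuclear receptors, which are immediate early genes regulated through their amount, did not pass. Nr4a1 read 10.63, 10.69 and 10.95 in control against 10.92, 10.58 and 11.04 in Cre+ LSEC. The groups overlapped throughout, and the difference was 0.09 (interval -0.21 to 0.38). Nr4a2 differed by -0.11 and Nr4a3 by 0.06. Myc, a growth factor-induced regulator of cell growth, differed by -0.12, the small Maf gene Maff by -0.40 and Csrnp1 by -0.21, and none of these passed.

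Among the early response regulators, 4 of 9 fell. Btg2, an antiproliferative gene whose product promotes removal of mRNA poly(A) tails, read 8.58, 8.49 and 8.87 in control against 7.70, 7.33 and 7.33 in Cre+ LSEC. The groups lay 0.79 apart at their nearest arrays. Btg2 fell by 1.19 (SE 0.12, limma adjusted p = 0.000173), and its second probe set gave -1.11.

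Ier3, an early response gene that affects cell survival, read 12.02, 12.03 and 12.36 in control against 10.82, 11.23 and 10.96 in Cre+ LSEC. It fell by 1.13 (SE 0.23, limma adjusted p = 0.0133) with no overlap. Rhob, a small GTPase of endosomes that is itself an immediate early gene, read 12.22, 12.52 and 12.16 in control against 11.52, 11.53 and 11.55 in Cre+ LSEC. As with Atf3, its Cre+ arrays were almost level with each other. Rhob fell by 0.77 (SE 0.11, limma adjusted p = 0.0016).

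Dusp1, a phosphatase that switches off stress-activated MAP kinases, read 11.23, 11.30 and 11.67 in control against 10.93, 10.59 and 10.47 in Cre+ LSEC. The nearest arrays of the groups were 0.30 apart. Dusp1 fell by 0.74 (SE 0.15, limma adjusted p = 0.0153), and was lost in 3 of 14 alternatives. Zfp36, which speeds the decay of AU-rich mRNAs, Ppp1r15a, which restarts translation after stress, and Ier5 differed by -0.55, -0.61 and -0.34 with no overlap, but did not pass (limma adjusted p = 0.0761, 0.0645 and 0.0975). Ier2 differed by 0.05 and the kinase gene Sgk1 by 0.18.

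Of the chaperones, only Hspb1 passed. Hspb1, whose product holds unfolded protein and binds actin, read 11.66, 11.67 and 12.39 in control against 9.87, 10.82 and 9.75 in Cre+ LSEC. The control array numbered 3 and the Cre+ array numbered 2 were the highest of their groups, and the groups did not overlap. Hspb1 fell by 1.76 (SE 0.29, interval -2.39 to -1.14, limma adjusted p = 0.00402), and its second probe set gave -1.86.

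The stress-inducible Hsp70 genes did not pass in LSEC. Hspa1a read 11.80, 11.57 and 12.43 in control against 10.64, 11.89 and 11.27 in Cre+ LSEC. The groups overlapped, and the difference of -0.67 had an interval of -1.92 to 0.59. Hspa1b gave -0.35, with an interval of -1.60 to 0.90. The fit shares 1 estimate of spread over the tissues, and these intervals carry the spread of the thymus arrays: the SD of Hspa1b was 1.17 and 1.88 in control and Cre+ thymus, and 0.20 and 0.42 in LSEC. With only the LSEC arrays fitted, the intervals were -1.48 to 0.14 for Hspa1a and -0.86 to 0.16 for Hspa1b (limma adjusted p = 0.377 and 0.464). Since Hspa1a and Hspa1b encode almost the same RNA, which copy each probe set reads is uncertain.

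Hspa8, the constitutive Hsp70, read 13.20, 13.06 and 13.27 in control against 13.01, 12.99 and 13.08 in Cre+ LSEC. Those groups overlapped and differed by -0.15. The Hsp40 co-chaperone gene Dnajb1 differed by -0.51 and the endoplasmic reticulum Hsp70 gene Hspa5 by -0.20, both with no overlap and neither past the threshold (limma adjusted p = 0.167 and 0.192). Dnaja1, Hsp90aa1 and Hsph1 differed by -0.08, -0.06 and -0.29, and the dimmer probe sets of Dnaja1 gave 0.36 and 0.38. Hspe1, the mitochondrial Hsp10, stood the other way, with 10.74, 10.57 and 10.67 in control against 10.89, 11.30 and 11.04 in Cre+ LSEC, a difference of 0.41 that did not pass (limma adjusted p = 0.274).

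**Figure D1:**
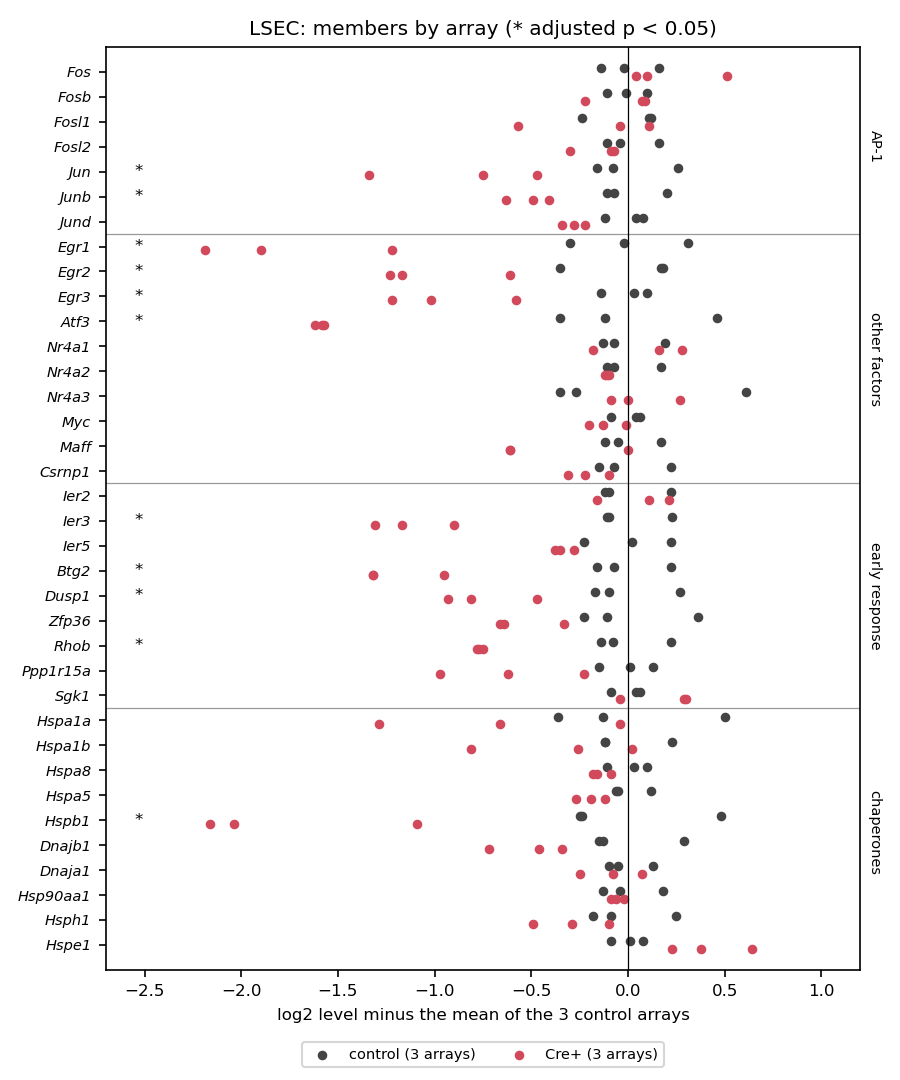
Each of the 36 genes on the 6 LSEC arrays, as the log2 level minus the mean of the 3 control arrays, with control arrays in black and Cre+ arrays in red. The 11 starred genes passed at a limma adjusted p under 0.05, and all Cre+ points of these genes lie left of their control points, while Fos, Nr4a1 and Hsp90aa1 overlap.

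Egr1, Atf3, Btg2, Rhob and Hspb1 kept their call in each of 14 alternatives run for this comparison, which changed the scaling, the filter, the probe set rule, the variance model or the arrays. Leaving out 1 array left 7 to 12 of the 36 called, 7 without the Cre+ array numbered 3.

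Markers of cell types also differed with genotype in LSEC. Over 9 LSEC marker genes the mean level was 10.61, 11.23 and 10.74 in control against 9.25, 8.63 and 9.44 in Cre+ samples, and 8 of the 9 fell. Over 8 mast cell and basophil genes it was 5.98, 5.94 and 5.90 in control against 7.70, 7.14 and 6.73 in Cre+ samples, and 3 of the 6 tested rose (Cpa3, Tpsab1 and Hdc). Mcpt4 of that list read 2.34 and 2.39 in the group means and was at 0 on at least 1 array of the series. Over 6 neutrophil genes the mean was 5.71, 6.23 and 6.19 in control against 8.07, 6.60 and 7.01 in Cre+ samples, with 1 of the 4 tested, S100a8, risen and Camp at 0.57 and 1.74 in the group means. Over 10 pan-endothelial genes it was 10.65, 10.84 and 10.53 in control against 10.41, 10.15 and 10.49 in Cre+ samples, with no overlap, and Pecam1 (-0.72) and Robo4 (-1.25) fell. Of 10 lung endothelial genes Cldn5 fell (-1.42) and Ednrb rose (1.84). Of 12 stellate, fibroblast and mural genes Col1a2 (-0.69) and Pdgfra (-0.62) fell, and of 4 hepatocyte genes tested Ttr rose (0.54). The Pdgfra means, 6.50 in control and 5.88 in Cre+ LSEC, lay under the level set for testing, so its size is uncertain. Other measures overlapped between the genotypes. Over 10 macrophage and Kupffer cell genes the mean was 8.52, 8.44 and 9.62 in control against 9.57, 8.53 and 8.21 in Cre+ samples, so it was high on 1 array of each genotype, and 0 of the 9 tested passed (limma), 0 of them at an unadjusted p under 0.05. The 3′ minus 5′ signal of beta-actin, a measure of RNA integrity, was 0.61, 0.33 and 0.21 in control against 0.07, 0.29 and 0.15 in Cre+ LSEC. The part of these measures in the differences of the 11 genes was not tested.

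Related genes outside the 36 were read from 4 lists. Of 39 further immediate early and early response genes, 8 fell and 3 rose, with a median of -0.08 against 0.01 over all genes. Over all genes 3.25% fell and 2.81% rose. The genes of that list that differed most were the cytokine gene Il6 (3.92), the receptor feedback inhibitor Errfi1 (-1.37), the matricellular gene Ccn2 (-1.12) and the chemokine gene Ccl2 (-0.97). Of 16 kinases and cofactors that act upstream, Mapk9 fell by 0.39 and Srf, the gene of serum response factor, rose by 0.45. Of 27 further cytosolic and mitochondrial chaperones, Hspa14 alone passed, at 0.38, and the median was 0.06. Of 22 genes of endoplasmic reticulum folding and the unfolded protein response, the collagen chaperone gene Serpinh1 rose by 1.02, and Herpud1 and Dnajb9 fell by 0.49 and 0.38.

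In lung endothelial cells, 0 of the 36 genes passed (limma), against 0.107% of all genes called, and 0 had an unadjusted p under 0.05, against 4.56% of all genes. The groups of 2 and 2 did not overlap for 18 of the 36, against 38.4% of all genes. The median difference was -0.04 against 0.02 over all genes, with a range of -0.39 to 0.43. Atf3 had the lowest difference, with 7.97 and 7.67 in control against 7.39 and 7.46 in Cre+ samples. Both Cre+ arrays were lower, and the difference was -0.39 with an interval of -0.84 to 0.05. These values come from the fit that shares 1 spread over the tissues. With only the lung arrays fitted, the intervals were -0.72 to -0.07 for Atf3 and -0.51 to -0.08 for Jun. They were -0.46 to -0.04 for Rhob, -0.46 to -0.01 for Junb and, on the other side of 0, 0.02 to 0.46 for Fosl1. None of these genes passed in that fit (limma adjusted p = 0.528 to 0.636).

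Egr1 read 10.21 and 10.71 in control against 10.58 and 10.61 in Cre+ lung samples. The Cre+ arrays lay between the control arrays, and the difference was 0.14 (interval -0.47 to 0.75). Hspb1 read 11.23 and 11.42 in control against 11.20 and 11.11 in Cre+ samples, a difference of -0.17 (interval -0.94 to 0.60). Btg2 read 10.15 and 10.17 in control against 9.99 and 9.99 in Cre+ samples, a difference of -0.17 (interval -0.49 to 0.14). Rhob and Junb gave -0.25 and -0.23, with intervals of -0.54 to 0.03 and -0.51 to 0.04.

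In thymus, 0 of the 36 genes passed (limma), against 0.414% of all genes called. An unadjusted p under 0.05 was found for 4 of the 36, against 12.4% of all genes. The groups did not overlap for 14 of the 36, against 41.6% of all genes, and the median difference was -0.03 against 0.02. Fosl2 came closest. It read 6.23 and 5.86 in control against 6.65 and 7.16 in Cre+ thymus, a difference of 0.86 (limma adjusted p = 0.0662). The control mean is under the level set for testing, and the second probe set of Fosl2 gave -0.14. Without the Cre+ array numbered 1, which leaves 1 Cre+ thymus array, Fosl2 was at 1.11 and Ier3 at 0.96.

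The other 3 genes with an unadjusted p under 0.05 in thymus were Rhob, Egr3 and Myc. Rhob read 8.79 and 9.05 in control against 9.30 and 9.51 in Cre+ thymus, a difference of 0.48 (limma adjusted p = 0.146) with no overlap, opposite in sign to LSEC. Egr3 and Myc gave -0.53 and -0.32 (limma adjusted p = 0.38 and 0.232). Egr1 read 10.69 and 10.63 in control against 10.69 and 10.70 in Cre+ thymus and lay within 0.07 on all 4 arrays. Atf3, at 5.79 and 5.79 in control against 5.91 and 5.74 in Cre+ thymus, was under the level set for testing. On the 4 lists of related genes, limma called 0 in lung and 0 in thymus. An unadjusted p under 0.05 was found for 2 of the 39 early response genes in lung and for 7 in thymus, beside the shares of all genes given above.

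**Figure D2:**
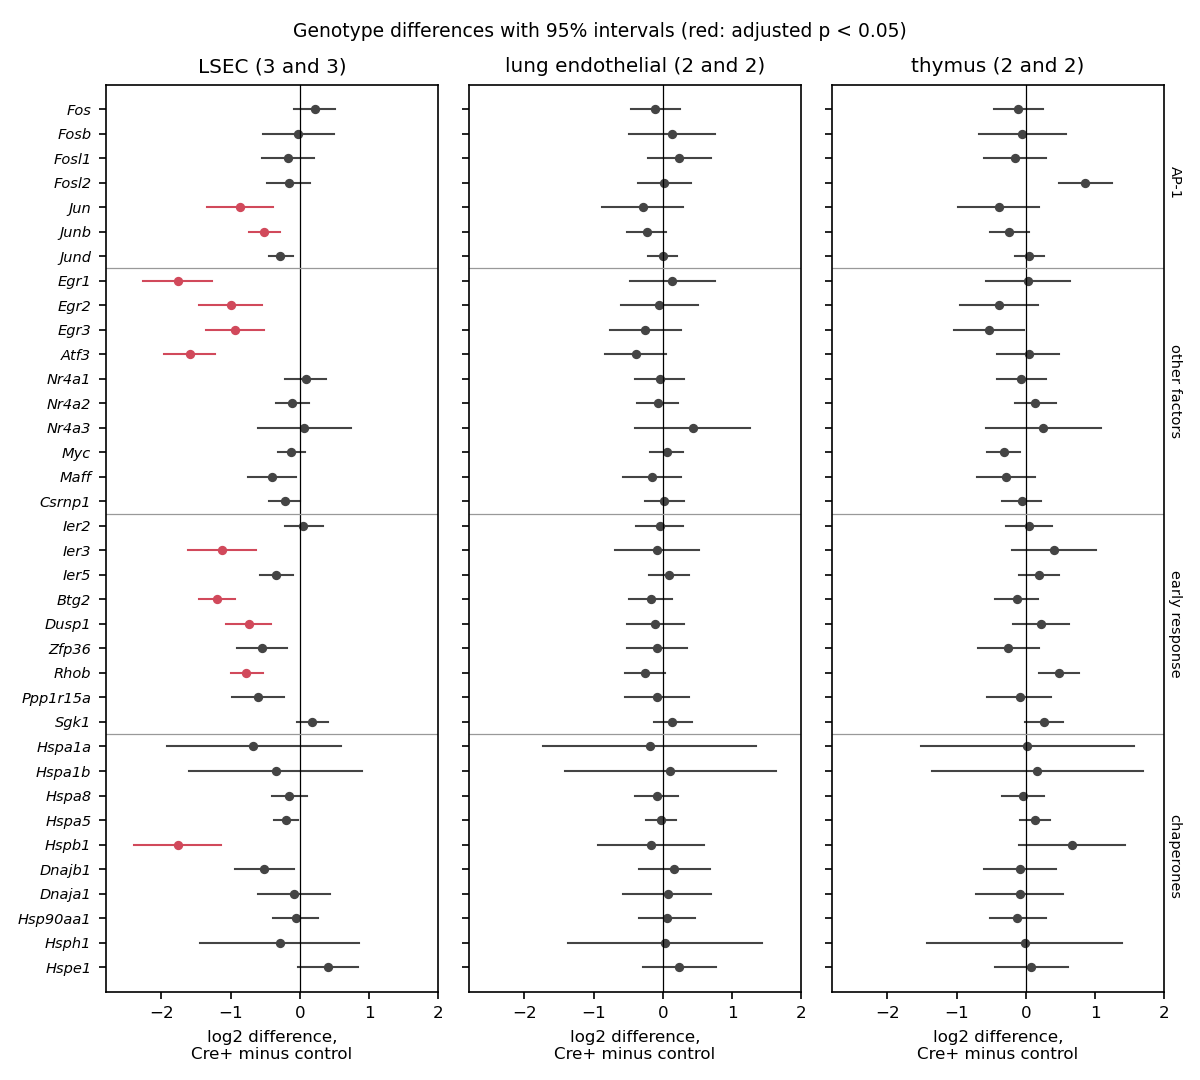
Log2 difference of each of the 36 genes between Cre+ and control samples, with 95% intervals from limma, in LSEC (3 and 3 arrays), lung endothelial cells (2 and 2) and thymus (2 and 2). The 11 genes in red passed at an adjusted p under 0.05, all in LSEC and all below 0, and the intervals of Hspa1a, Hspa1b and Hsph1 are the widest in each panel because the fit shares 1 spread over the tissues, which for these genes comes mostly from thymus.

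Whether the genotype difference itself was unequal between tissues was tested as an interaction. Between LSEC and lung, 2 of the 36 passed, against 0.614% of all genes. Egr1 was 1.90 log2 units and Btg2 1.02 log2 units further down in LSEC, with interactions of -1.90 and -1.02 (limma adjusted p = 0.0443 and 0.0398). The first was lost in 13 of 19 alternatives and the second in 14 of 19. For Jun, Junb, Egr2, Egr3, Atf3, Ier3, Dusp1, Rhob and Hspb1 no difference between LSEC and lung was shown.

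Between LSEC and thymus, 6 of the 36 passed, against 2.34% of all genes. The interactions were -2.43 for Hspb1, -1.80 for Egr1, -1.62 for Atf3, -1.25 for Rhob, -1.06 for Btg2 and -1.02 for Fosl2 (limma adjusted p = 0.0201, 0.0283, 0.0115, 0.00537, 0.0165 and 0.0413). The Fosl2 interaction rests on its higher level in Cre+ thymus and on 1 of its probe sets. The Hspb1 interaction combines a difference of -1.76 in LSEC with 0.67 in thymus, where the interval was -0.10 to 1.44. Hspb1 read 8.29 and 8.16 in control against 8.54 and 9.25 in Cre+ thymus. Over 20 alternatives the call was lost in 14 for Fosl2, 10 for Egr1, 7 for Btg2, 7 for Hspb1, 4 for Atf3 and 1 for Rhob. Leaving out both thymus arrays of 1 number leaves 1 array in each thymus group, so only sizes are given here. The 6 interactions kept their sign, at -0.58 to -2.02 without the arrays numbered 2. Without those numbered 1, Egr1 was at -1.83, Atf3 at -1.54 and Btg2 at -1.03. Ier3, which is not among the 6, was then at -2.17. Each fit without a pair assumes that the lone arrays left vary like the other groups.

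Control LSEC and control lung endothelial cells were compared to place the genes between endothelial beds, with 3 and 2 arrays. Of the 36, 25 passed, 19 higher and 6 lower in LSEC, against 46.1% of all genes called, 25.9% higher and 20.2% lower. The groups did not overlap for 34 of the 36, against 67.7% of all genes. The median difference was 0.58 against 0.08 over all genes. This comparison uses the same LSEC control arrays as the genotype comparison in LSEC. The lung arrays also carry the epithelial and mesenchymal RNA given above, and its part was not tested.

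The inducible Hsp70 genes differed most. Hspa1a read 7.15 and 7.25 on the control lung arrays, against 11.57 to 12.43 in control LSEC. That is a difference of 4.73 (26.6-fold, SE 0.64, limma adjusted p = 0.000127). Hspa1b read 8.86 and 8.79 in control lung, against 12.92 to 13.27 in control LSEC, a difference of 4.22 (18.6-fold, limma adjusted p = 0.000274).

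Atf3 was 8.38-fold higher in control LSEC (3.07), Ppp1r15a 6.44-fold (2.69) and Fos 3.36-fold (1.75). Fos read 8.05 and 8.30 in control lung and at least 9.78 in control LSEC, with no overlap. Dnajb1, Hspa5, Csrnp1, Ier3, Fosl2 and Sgk1 were higher by 0.84 to 1.24. The genes lower in control LSEC were Egr2 (-2.38), Btg2 (-1.52), Ier2 (-1.0), Zfp36 (-0.88), Ier5 (-0.62) and Junb (-0.39). Egr2 read 8.95 and 9.50 in control lung and 6.49 to 7.02 in control LSEC, where its mean of 6.84 is under the level set for testing. The other 8 genes that were higher in LSEC (Jund, Nr4a2, Maff, Dusp1, Rhob, Hspa8, Dnaja1 and Hsp90aa1) differed by 0.37 to 0.83. Of these, Dnaja1 and Hsp90aa1 lost the call in 4 of 12 alternatives each and Nr4a2 in 4 of 11, and Dnaja1 was 0.20 with the mean of its probe sets (limma adjusted p = 0.542, and 0.0019 to 0.542 over its alternatives). Jun, Egr1, Egr3, Nr4a1, Nr4a3, Fosb, Fosl1, Myc, Hspb1, Hsph1 and Hspe1 did not pass. Hsph1, at 0.83, passed with only the arrays of these groups fitted (limma adjusted p = 0.0112), where the spread of the thymus arrays has no part.

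Related genes outside the 36 split both ways in control LSEC. Over all genes 25.9% were higher and 20.2% lower, with a median of 0.08. Of 39 further early response genes, 17 were higher and 14 lower, with a median of 0.10. They were led by the neutrophil chemokine gene Cxcl2 (4.85) and by Snai1 (-3.02), Il6 (-2.85) and Cxcl1 (2.17). Of 27 further cytosolic and mitochondrial chaperones, 3 were higher and 8 lower, with a median of 0.05. Of 22 genes of endoplasmic reticulum folding, 13 were higher and 3 lower, with a median of 0.43.

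Control thymus was compared with the mean of control LSEC and control lung. Of the 36 genes, 26 passed, 7 higher and 19 lower in thymus, against 65.5% of all genes called, 28.6% higher and 36.8% lower. Of the AP-1 genes, Fosl1 was at -4.18, Fosl2 at -4.09, Jun at -2.92 and Fos at -2.69. The control thymus means of Fosl1, Fosl2 and Fos lay under the level set for testing, with Fosl1 at 5.46 and 5.35, Fosl2 at 6.23 and 5.86, and Fos at 6.27 and 6.44 on the arrays, so these sizes are uncertain. The second probe set of Fosl2 read 7.87 in control thymus against 8.27 in control LSEC and 8.16 in control lung, and with the mean of its probe sets Fosl2 was at -2.22. Atf3 (-3.56), Hspb1 (-3.39), Rhob (-3.08) and Maff (-3.02) were also lower, and the other 11 lower genes, among them Sgk1, Hspa1a and Hspa5, lay between -0.44 and -2.73. The control thymus means of Atf3 (5.79), Maff (5.93) and Egr3 (5.78) were under the level set for testing too. The second probe set of Egr3, also dim, read 6.70 in control thymus, 4.61 in control LSEC and 6.76 in control lung. With the mean of its probe sets Egr3 was at -0.14 and lost its call (limma adjusted p = 0.388), so its direction is uncertain. Of 39 further early response genes, 9 were higher and 26 lower, with a median of -1.69 against -0.08 over all genes, and the extremes were Ccn2 (-6.47), Cebpd (-4.92), Plk2 (-4.85) and Ccl2 (-4.80).

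Btg2, which limits the growth of lymphocytes, was the gene with the largest positive difference in thymus. It read 12.45 and 12.52 there, against 8.49 to 8.87 in control LSEC and 10.15 and 10.17 in control lung, a difference of 3.08 (SE 0.12, limma adjusted p = 1.55e-09). Dnajb1 (1.54), Dnaja1 (1.14), Csrnp1 (1.08), Egr2 (0.84), Zfp36 (0.83) and Jund (0.27) were the other genes higher in thymus than the endothelial mean. Of these, Egr2 was lower in control thymus (8.88) than in control lung (9.22). Jund was lower in control thymus (12.07) than in control LSEC (12.18). The sign of Jund turned under median centring (-0.05) and with the mean of its probe sets (-0.04). Egr1 and Nr4a1 did not pass, at -0.11 and 0.15.

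Levels of Egr1 in the control groups were 11.08 ± 0.30 (SD, n = 3) in LSEC, 10.66 ± 0.04 (SD, n = 2) in thymus and 10.46 ± 0.35 (SD, n = 2) in lung, with thymus inside the range of the lung arrays and every LSEC array above both. The difference of 0.62 between LSEC and lung did not pass (limma adjusted p = 0.0665). Levels of Nr4a1 were 10.76 ± 0.17 (SD, n = 3) in LSEC, 10.72 ± 0.05 (SD, n = 2) in thymus and 10.39 ± 0.14 (SD, n = 2) in lung, and LSEC and thymus do not differ beyond their spread. Atf3 had a steep order, 10.89 ± 0.42 (SD, n = 3) in LSEC, 7.82 ± 0.21 (SD, n = 2) in lung and 5.79 in thymus, with no neighbours within their spread.

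**Figure D3:**
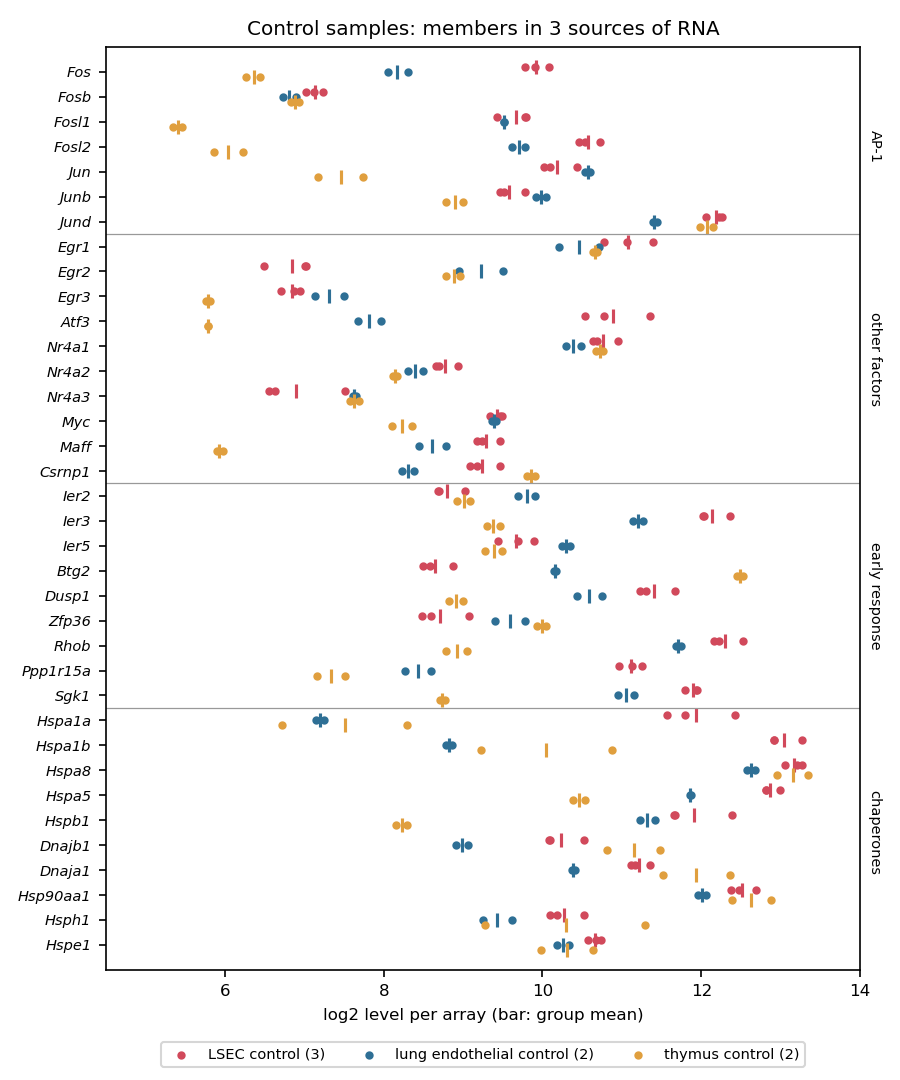
Log2 level of each of the 36 genes on the 7 control arrays, with 1 point per array and a bar at the group mean, for LSEC (red), lung endothelial cells (blue) and thymus (orange); levels are comparable along a row only. Hspa1a and Hspa1b stand highest in LSEC, Btg2 highest in thymus, and the thymus points of Hspa1a, Hspa1b and Hsph1 lie more than 1.5 apart.

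The largest spread within groups was that of the heat shock genes in thymus. In both genotypes the array numbered 2 stood above the array numbered 1. Hsph1, an Hsp110 that recharges Hsp70 with nucleotide, read 9.28 and 11.29 on control arrays 1 and 2 and 9.21 and 11.33 on Cre+ arrays 1 and 2. The arrays grouped by number and not by genotype, with gaps of 2.02 and 2.12.

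Hspa1b read 9.23 and 10.88 in control against 8.88 and 11.54 in Cre+ thymus, with gaps of 1.65 and 2.66. Hspa1a read 6.72 and 8.29 in control against 6.30 and 8.75 in Cre+ thymus, with gaps of 1.57 and 2.45. For both, each array numbered 2 was above each array numbered 1, and the gap was wider among Cre+ arrays.

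The Hsp40 gene Dnaja1 had gaps of 0.84 and 0.93, the Hsp10 gene Hspe1 0.66 and 0.72, Dnajb1 0.67 and 0.51, Hsp90aa1 0.50 and 0.52, and Hspa8 0.39 and 0.34. The endoplasmic reticulum chaperone gene Hspa5 had gaps of 0.15 and 0.08, and Hspb1 of -0.13 and 0.70. A gap above 0.5 in both genotypes was found for 6 of the 10 chaperone genes, for 7 of 27 further cytosolic and mitochondrial chaperones (25.9%), for 0 of the 26 genes outside the chaperones, for 0 of 22 genes of endoplasmic reticulum folding, and for 0.384% of all genes. Fos read 6.27 and 6.44 in control against 6.33 and 6.17 in Cre+ thymus, and Egr1 had gaps of -0.05 and 0.02. These counts are a description, since the numbers are not groups of the study.

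The 6 chaperone genes with gaps above 0.5 include Hspa1a, Hspa1b, Dnaja1, Hsph1 and Hspe1, whose promoters hold a heat shock element. Dnajb1, the 6th, held no match in its window, and Hspb1, with 2 matches, had no gap in control thymus. The arrays numbered 1 are those with high Xist and low Y-linked RNA, Kdm5d for example reading 4.95 and 4.78 there and 6.84 to 8.10 on the other 12. The array number and this X and Y pattern cannot be told apart in thymus, and its part in the gaps was not tested. Within numbers, the genotype difference of Hspa1a was -0.42 on arrays 1 and 0.46 on arrays 2, that of Hspa1b -0.34 and 0.67, and that of Hsph1 -0.06 and 0.04.

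The contrast of control thymus with endothelial cells depended on these arrays for the heat shock genes. Hsph1 stood 0.44 higher in thymus with all arrays, which did not pass. It was -0.57 without the arrays numbered 2 and 1.44 without those numbered 1. Each of these fits leaves 1 control thymus array, so only sizes are given. Hspa1b was -0.88 with all arrays and -1.70 without the arrays numbered 2. Hspa1a was -2.06 with all arrays and ran from -2.85 to -1.28 over its 16 alternatives, so its size depends on these arrays too.

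**Figure D4:**
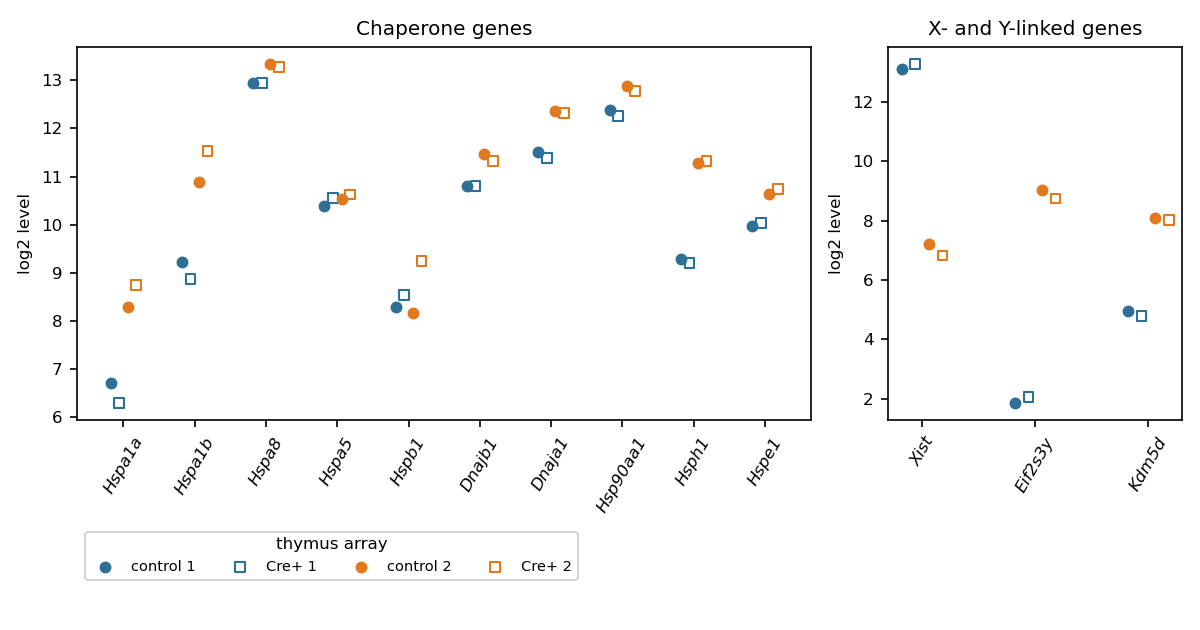
Log2 levels of the 10 chaperone genes (left) and of Xist, Eif2s3y and Kdm5d (right) on the 4 thymus arrays, with arrays numbered 1 in blue, arrays numbered 2 in orange, circles for control and squares for Cre+. For Hsph1, Hspa1a and Hspa1b the orange points stand above the blue ones in both genotypes by 1.57 to 2.66, and the X- and Y-linked genes separate the same arrays.

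Within LSEC groups, 1 array of each genotype was the highest for most of the 36 genes. Among the chaperones the spread was smaller than in thymus. The control array numbered 3 was the highest of its group for 26 of the 36 genes, 8 of the 10 chaperones among them. The Cre+ array numbered 2 was the highest of its group for 20 of the 36, 9 chaperones among them. The share of all genes that was highest on each array was not counted, so whether these counts are particular to the 36 was not tested. The median range between arrays of a group was 0.34 in control against 0.37 in Cre+ LSEC over the 36 genes, against 0.24 and 0.24 over all genes. In lung it was 0.15 and 0.08, against 0.11 and 0.12 over all genes, and no lung gene spread over more than 0.55, the value for Egr2. The control LSEC array numbered 3 is also the control array with the high macrophage and Kupffer cell mean given above. The Cre+ array numbered 2, at 8.53, is not the Cre+ array with the high mean. Mean levels over the chaperones were 11.70, 11.65 and 11.99 in control against 11.22, 11.67 and 11.37 in Cre+ LSEC, and overlapped. Means over the 9 early response regulators were 10.46, 10.44 and 10.66 in control against 10.01, 9.97 and 9.89 in Cre+ LSEC, with no overlap.

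**Figure D5:**
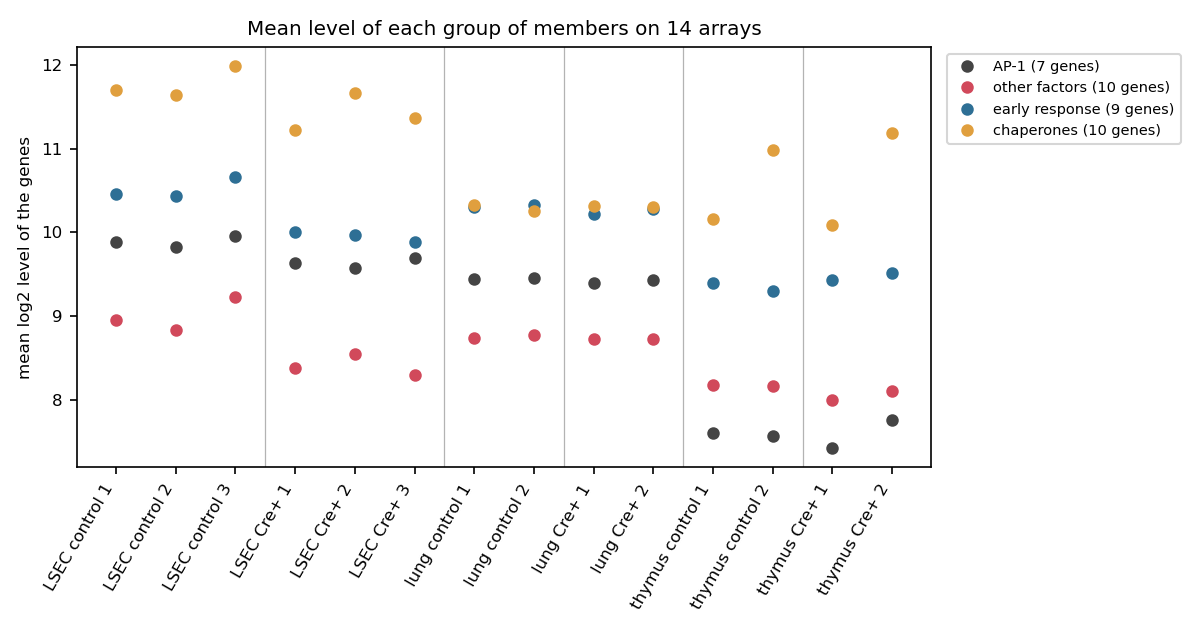
Mean log2 level of the 7 AP-1 genes, the 10 other factors, the 9 early response regulators and the 10 chaperones on each of the 14 arrays, which are read along a colour and not between colours. In LSEC the means of the first 3 groups lie lower on all Cre+ arrays, the lung arrays are level, and in thymus the chaperones are higher on both arrays numbered 2 (10.99 and 11.19) than on both numbered 1 (10.16 and 10.09).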

How the data were processed

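RNA was labelled from an oligo-dT primer, per the labels' protocols, and hybridised to Affymetrix mouse arrays. The deposited table holds a value per probe set (45101) and array (14). The deposited values were taken as log2 from their range, since no label states the base; how the authors summarized and normalized them is not given in the sources used here. A floor of 0 holds 223 to 312 values of each array. The deposited medians differed by up to 0.282 between arrays, so quantile normalization was applied (limma 3.58.1 in R 4.3.3). Names came from the platform's annotation, which can be old: 34958 probe sets carried 1 symbol, 932 several and 9147 none, and 64 were controls. A gene was its brightest probe set, tested where its highest tissue mean reached 6.87, the 40th percentile. A linear model of 6 group means on 14 arrays had 8 residual and 3.2 prior degrees of freedom. Adjusted p-values are limma's, by Benjamini-Hochberg over 13035 genes in each contrast, and intervals are 95% intervals of that fit. Groups were counted as not overlapping when all arrays of one lay above all of the other.

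The members and gene lists were chosen with earlier results of these data known. A member is given array by array where it passed in a genotype contrast or led its role by level, and others where a result turns on them. Of other genes on a list, up to 4 with the largest difference are named. The test was checked on simulated data. Over all genes, deviations of same-numbered control and Cre+ arrays correlated at r of -0.31 to -0.09 in LSEC, -0.24 in lung and 0.05 in thymus, and the labels tie no numbers across genotypes, so no block was used. In thymus the same-numbered arrays nevertheless shared X- and Y-linked and heat shock transcripts. The alternatives changed the scaling (medians, or deposited values), the filter (none, or the 60th percentile), the probe set rule (a mean over probe sets), eBayes (trend and robust), the arrays fitted, the block, or left out 1 array. The block with crossed lung numbers and the fits without the thymus arrays of 1 number were chosen after seeing the data.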

Additional observations from a re-analysis of the deposited data

Results flagged for a closer look

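For 8 tests of members, the genotype difference was unequal between tissues by a test of the interaction (limma, adjusted over all genes). Against lung, the difference in LSEC was further below 0 for Egr1, by an interaction of -1.90 (adjusted p = 0.0443), and for Btg2, by -1.02 (adjusted p = 0.0398). All 3 Cre+ LSEC arrays lay below the control arrays for both genes. The call was lost in 13 of 19 alternatives for Egr1 and in 14 of 19 for Btg2. Against thymus, it was further below 0 for Hspb1 (-2.43, adjusted p = 0.0201), Egr1 (-1.80, adjusted p = 0.0283), Atf3 (-1.62, adjusted p = 0.0115), Rhob (-1.25, adjusted p = 0.00537), Btg2 (-1.06, adjusted p = 0.0165) and Fosl2 (-1.02, adjusted p = 0.0413). These calls were lost, of 20 alternatives, in 14 for Fosl2, 10 for Egr1, 7 for Btg2, 7 for Hspb1, 4 for Atf3 and 1 for Rhob. For Fosl2 the genotype difference in LSEC was -0.16 and did not pass, and both Cre+ thymus arrays lay above both control arrays. Its second probe set gave -0.14 in thymus. For Hspb1 the genotype difference was -1.76 in LSEC and 0.67 in thymus, and the one in thymus did not pass.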

How the results depend on the processing

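Among single genes, a difference called before or after the change turned its sign 3 times, all in control thymus against endothelia: Jund, 0.27 as reported, was -0.05 under median centring and -0.04 with the mean of all probe sets, and Hsph1, 0.44 as reported, was -0.57 without the thymus arrays numbered 2. In the LSEC genotype comparison no called gene changed sign in any alternative. Counts are given as genes of the 36, then all genes. In LSEC (11 and 790), fitting only the arrays compared gave 7 and 358, and leaving out 1 array gave 7 to 12 and 500 to 624. In lung (0 and 14), the count over all genes was 2 with no filter, 4 with only the arrays compared, and 2 to 4 with 1 array left out. In thymus (0 and 54), it was 34 with median centring, 28 as deposited, 24 with no filter, 31 with the mean of all probe sets, 4 with only the arrays compared, and 8 without the arrays numbered 2. It was 109 with the stricter filter, 116 with trend and robust, and 108 without the arrays numbered 1, each with 1 of the 36 called, Fosl2. With 1 array left out it was 15 to 241, with 0 to 2 of the 36. For LSEC against lung (2 and 80), the counts were 1 of the 36 as deposited, 0 and 30 with no filter, 0 and 38 with only the arrays compared, 125 over all genes with trend and robust, and 0 to 2 and 4 to 97 with 1 array left out. For LSEC against thymus (6 and 305), they were 3 and 122 with no filter, 2 and 128 with only the arrays compared, 0 and 22 without the arrays numbered 2, and 1 to 7 and 62 to 666 with 1 array left out. For the control comparisons of LSEC with lung and of thymus with endothelia, leaving out 1 array gave 19 to 25 and 26 to 27 of the 36. The replicate block gave 8 and 352 in LSEC, 0 over all genes in lung (3 with the lung numbers crossed), 10 in thymus, 0 and 1 for LSEC against lung (0 and 15 crossed) and 1 and 23 for LSEC against thymus. In LSEC and lung the numbers were not found to pair the samples; in thymus same-numbered arrays shared X- and Y-linked and chaperone levels, though not deviations over all genes. The cause of these shifts was not tested.

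Fits that leave out arrays rest on fewer residual degrees of freedom, and with 2 arrays a group a lone array is assumed to vary like the others. Probe sets with group means under the level set for testing, such as those of Egr3 in LSEC and Atf3 in thymus, limit what a difference there can show.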
